A study of Mus musculus with 9 samples.

Results

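Bone morphogenetic protein (BMP) receptors and early transcriptional targets of BMP signalling were followed in Scx-GFP-positive cells of mouse forelimbs. The group comprised 10 genes, taken by symbol with no threshold on their values, though with earlier results of these data known: the receptors Bmpr1a, Bmpr1b and Bmpr2, the pseudoreceptor gene Bambi, the 4 inhibitor-of-differentiation genes Id1, Id2, Id3 and Id4, and the homeobox genes Msx1 and Msx2. All 10 were measured, out of 18193 genes with a probe set of their own on the array, and they were covered by 25 of 45037 probe sets. Embryos carried Scx-GFP, a reporter whose green fluorescence marks cells that use the tendon gene Scx. They came from natural matings and were taken at embryonic days written E11.5, E12.5 and, last, E14.5. Trypsin was used to dissociate the forelimbs, a flow sorter, one of 2 models, collected the GFP-positive fraction, and amplified RNA was hybridized to mouse expression arrays, 3 per stage, lettered A, B and C. No group was free of the reporter, and no GFP-negative cells were among the 9 arrays. Strain, the number of embryos pooled, and the instrument and litter of each array are not given in the sources used here, so p-values measure the spread between these arrays, which may be technical.

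BMP ligands bind a complex of type I receptors, such as the products of Bmpr1a and Bmpr1b, and type II receptors, such as that of Bmpr2. The active complex phosphorylates SMAD proteins, which move to the nucleus and raise transcription of target genes, with ID and MSX genes among the best known. ID proteins lack a DNA-binding region and hold basic helix-loop-helix (bHLH) factors away from DNA, and scleraxis, the product of Scx, is itself a bHLH factor. In the limb bud, BMP signals pattern the digits, start cartilage formation and guide cell death between digits.

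Sequences just upstream of transcription starts are shown for Id2, Id3 and Id4, whose signals differed together between arrays of a stage, and for Msx2, which fell at E14.5. Each is 250 bases long, 5′ to 3′ on the strand of the gene, from RefSeq (GRCm38.p6), which had a window for 8 of the 10 genes, all but Bambi and Id1. Capitals mark GGCGCC, GC-rich letters that BMP-activated SMADs can bind, and CCAAT, the core of a common promoter element, or ATTGG, its reverse complement. Both strands were searched, GGCGCC reads the same on both, and the motifs can share letters where GGCGCC runs into CCAAT. The windows are Id2 at chr12:25096093-25096342 (minus strand), Id3 at chr4:136143572-136143821 (plus), Id4 at chr13:48260866-48261115 (plus) and Msx2 at chr13:53472781-53473030 (minus).
Id2: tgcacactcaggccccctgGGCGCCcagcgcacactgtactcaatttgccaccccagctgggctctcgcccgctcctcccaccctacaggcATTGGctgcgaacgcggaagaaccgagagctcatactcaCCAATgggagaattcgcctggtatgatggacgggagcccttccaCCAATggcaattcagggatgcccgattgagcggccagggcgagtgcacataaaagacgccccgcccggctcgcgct
Id3: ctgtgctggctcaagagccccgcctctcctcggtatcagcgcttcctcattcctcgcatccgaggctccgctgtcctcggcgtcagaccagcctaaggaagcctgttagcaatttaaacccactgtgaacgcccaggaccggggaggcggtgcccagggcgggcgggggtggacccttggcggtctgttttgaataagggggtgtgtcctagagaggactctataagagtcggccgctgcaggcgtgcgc
Id4: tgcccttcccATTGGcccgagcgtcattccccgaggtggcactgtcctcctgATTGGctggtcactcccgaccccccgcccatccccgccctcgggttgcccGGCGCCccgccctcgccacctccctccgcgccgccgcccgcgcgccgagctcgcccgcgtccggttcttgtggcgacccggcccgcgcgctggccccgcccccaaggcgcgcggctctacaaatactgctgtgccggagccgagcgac
Msx2: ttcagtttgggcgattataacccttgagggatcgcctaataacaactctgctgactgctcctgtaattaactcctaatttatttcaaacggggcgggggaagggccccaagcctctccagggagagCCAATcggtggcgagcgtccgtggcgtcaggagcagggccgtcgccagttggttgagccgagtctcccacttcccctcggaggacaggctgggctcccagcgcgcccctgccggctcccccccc
Id2 held 1 GGCGCC and 3 CCAAT, Id4 held 1 GGCGCC and 2 CCAAT, and Msx2 held 1 CCAAT, while neither motif was in the Id3 window. Of the windows not shown, those of Bmpr1a and Bmpr2 also held 1 GGCGCC each. CCAAT was in those of Bmpr1a and Msx1 and in a window of Bmpr1b. Among 32851 promoter windows of this length, 9.6% held GGCGCC and 33.8% held CCAAT. These matches describe the letters only.

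The sorted cells matched their label in part. Scx signals were high at every stage, with means of 19338 at E11.5, 16656 at E12.5 and 11152 at E14.5, and all 9 tendon markers were above the detection filter in every E14.5 array. At E11.5, Tnmd, a marker of differentiated tendon, was at the floor of signal in arrays B and C. Markers of other cells were also present. The summed signal of 9 cartilage markers was 16684 to 20022 at E11.5 and 11872 to 81220 at E14.5, where array A was the highest. The sum over 8 muscle markers ranged from 3885 to 11641 over the 9 arrays, while 10 limb ectoderm markers summed to between 1050 and 1617. Because the samples are bulk RNA, fewer cells of a type and less RNA per cell cannot be told apart. The arrays had median signals from 68.7 to 118.5, correlations across genes between arrays of one stage lay between 0.950 and 0.982, and their number limits the precision.

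From E11.5 to E12.5 none of the 10 genes was called, against 3.55% of all 11575 genes tested. Calls here rest on limma with Benjamini-Hochberg adjustment over all genes tested, at an adjusted p under 0.05. No member had an unadjusted p under 0.05 either, against 16% of all genes. With the letters as a block none was called (4.55% of all genes were), and 2 of 10 (Id3 and Id4) had an unadjusted p under 0.05, as had 19.8% of all genes. From E12.5 to E14.5, 1 of 10 fell (Msx2) and none rose, against 22.0% of all genes called in either direction (12.6% higher and 9.32% lower). The numbers of called members under the letter block, which pairs arrays of the same letter, were 1 higher (Id4) and 3 lower (Bambi, Id1 and Msx2), against 26.7% of all genes (14.8% higher and 11.9% lower). Between E11.5 and E14.5, Id4 rose and Msx2 fell, 2 of 10, against 40.5% of all genes (22.9% higher, 17.7% lower). The median log2 change of the 10 genes was 0.18, -0.37 and -0.08 in these 3 comparisons, beside 0.04, -0.05 and 0.0035 over all genes. limma's F-test over the 3 stages called Id4 and Msx2, against 33.7% of all genes. The 3 comparisons share arrays and are not independent of each other.

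**Figure D1:**
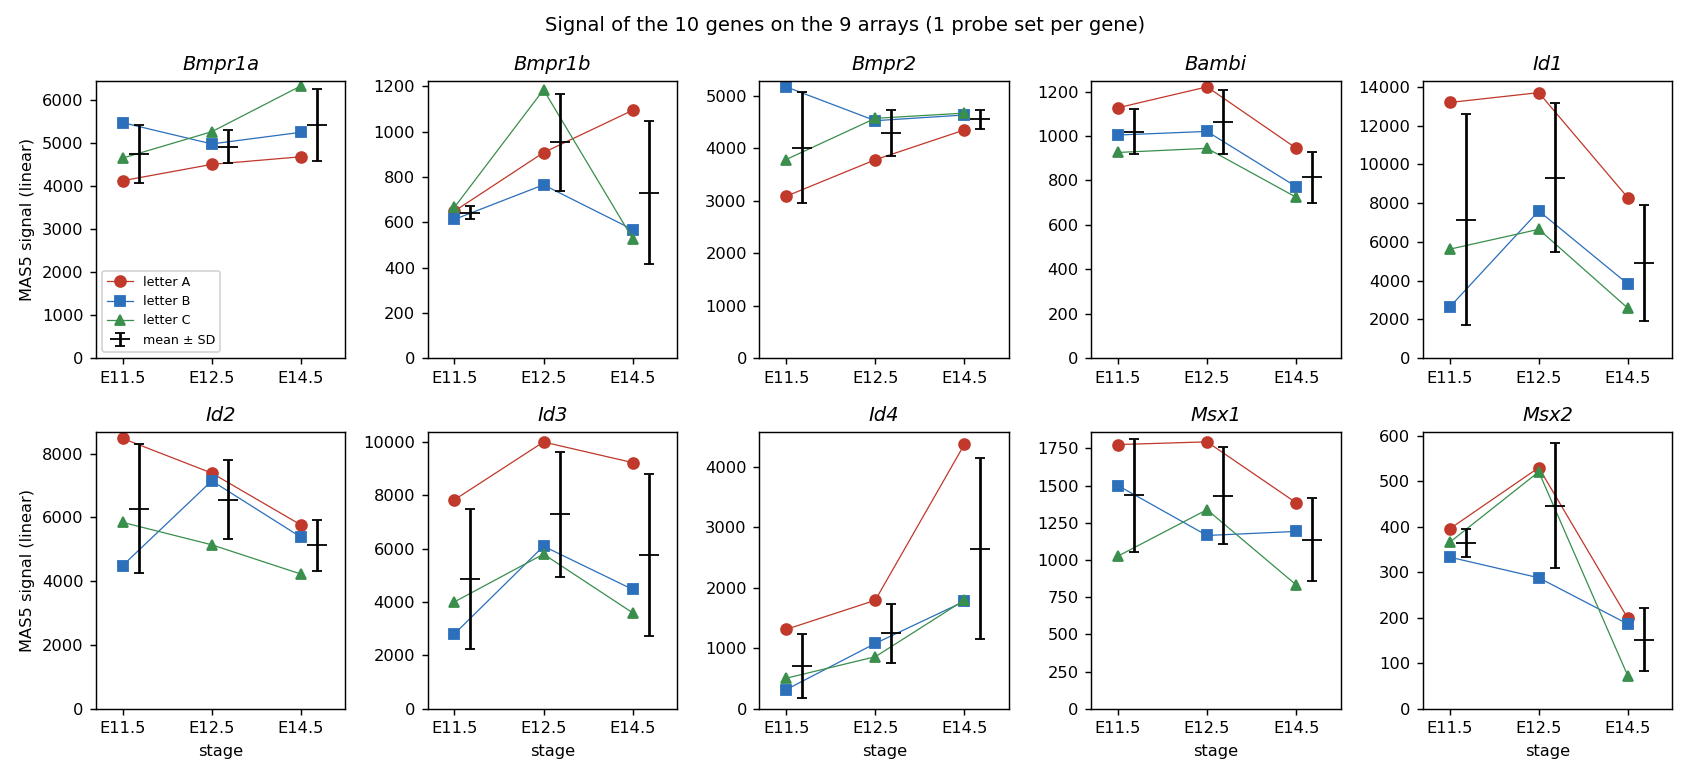
MAS5 signal (linear, y axis) of each gene by stage (x axis); markers are single arrays by letter, lines join arrays of one letter, and black bars are mean ± SD (n = 3). Id4 is highest at E14.5, Msx2 is lowest there, and red letter A markers lie on top in every stage for Bambi, the ID genes, Msx1 and Msx2.

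The type I and type II receptor genes Bmpr1a and Bmpr2 gave high signals that differed little between stages. Bmpr1a, a type I receptor gene needed in early limb development, had signals of 4118, 5466 and 4643 in the E11.5 arrays A, B and C, 4497, 4972 and 5255 at E12.5, and 4674, 5242 and 6319 at E14.5. The stages overlapped, and the means were 4742 ± 679, 4908 ± 383 and 5411 ± 836 (SD, n = 3). Over the whole series its log2 change was 0.19 ± 0.16 (SE, limma adjusted p = 0.383). Bmpr2, which encodes the type II receptor dedicated to BMPs, had signals of 3085, 5170 and 3785 at E11.5, 3781, 4525 and 4570 at E12.5, and 4349, 4633 and 4669 at E14.5. Its stages also overlapped, and the widest spread was at E11.5, between arrays A and B (means 4013 ± 1061, 4292 ± 443 and 4550 ± 176; SD, n = 3). Bmpr2 differed by 0.21 ± 0.19 on the log2 scale between E11.5 and E14.5 (limma adjusted p = 0.397). For both genes the order of stage means was E14.5, E12.5, E11.5 from high to low, and no neighbours in that order differed beyond their spread.

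Bmpr1b, a type I receptor gene known for its role in digit cartilage, peaked in mean signal at E12.5. Its signals were 649, 613 and 666 at E11.5 (643 ± 27.2), 908, 766 and 1186 at E12.5 (953 ± 214), and 1095, 568 and 528 at E14.5 (730 ± 316; SD, n = 3). Every E12.5 array lay above every E11.5 array, a separation seen upward in 15.8% of all genes, yet the log2 change of 0.55 ± 0.27 was not called (limma adjusted p = 0.373). At E14.5 array A lay within the range of the E12.5 arrays, and arrays B and C were below all of them. The change from E12.5 to E14.5 was -0.44 ± 0.27 (adjusted p = 0.270 in limma), and without the E14.5 A array it was -0.78 with an adjusted p of 0.0268, a call. That array also had the highest sum of cartilage signals, 81220, against 21900 in E14.5 B and 11872 in E14.5 C. In arrays A, B and C the cartilage sums were 17685, 16684 and 20022 at E11.5 and 26763, 26418 and 31530 at E12.5. The part of cartilage cells in the Bmpr1b values was not tested.

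Bambi encodes a membrane protein that resembles a type I receptor without its kinase and dampens BMP and TGF-beta signals, and its gene is itself a BMP target. Its signals were 1127, 1005 and 926 at E11.5, 1221, 1021 and 945 at E12.5, and 945, 772 and 724 at E14.5. The E14.5 arrays were the lowest of their letter, although E14.5 A overlapped array C of both earlier stages. Mean signals were 1019 ± 101, 1062 ± 143 and 814 ± 116 (SD, n = 3). From E12.5 to E14.5 the change was -0.38 ± 0.16 on the log2 scale (limma adjusted p = 0.111). Within letters it was -0.37, -0.40 and -0.38, and with the letters as a block Bambi fell, with an SE of 0.11 and an adjusted p of 0.0363. Its order of stages was E12.5, E11.5, E14.5, and E11.5 and E12.5 did not differ beyond their spread.

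**Figure D2:**
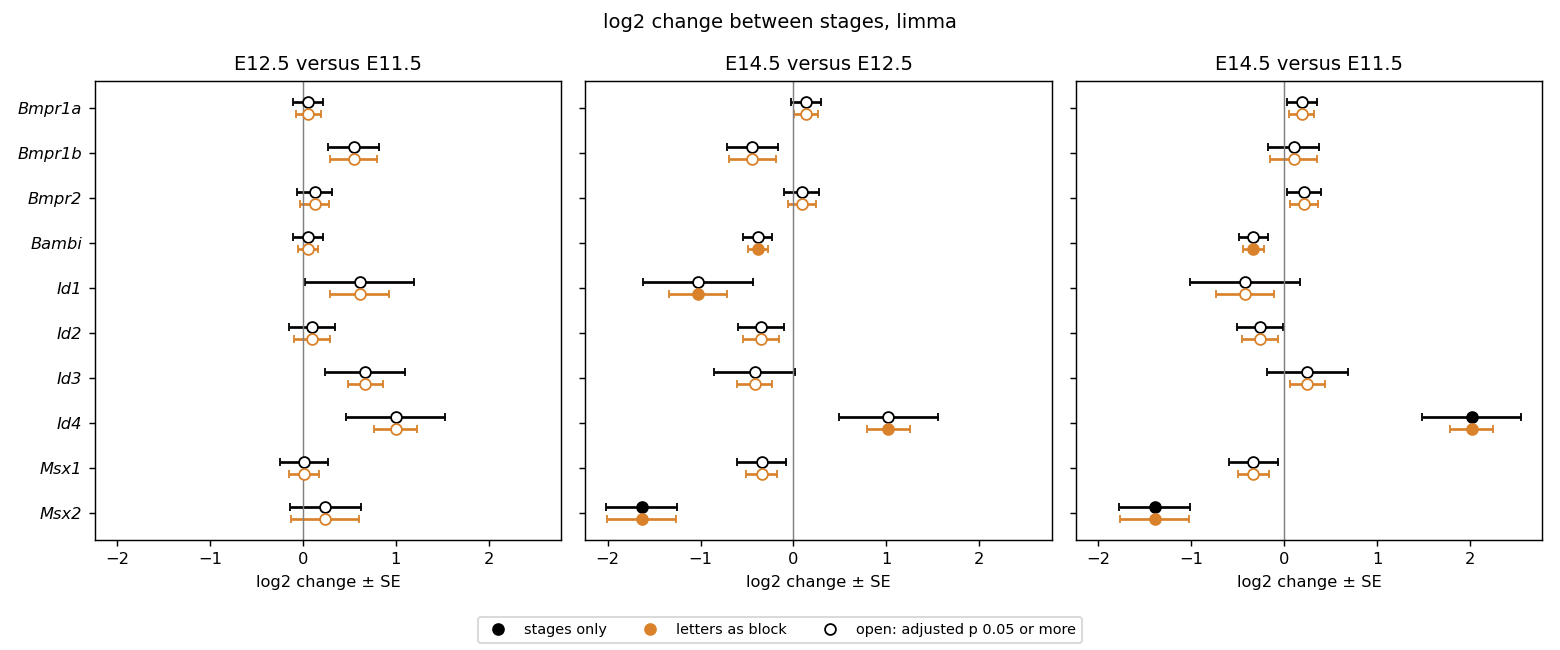
log2 change (x axis) with its standard error for the 10 genes (y axis) in each pair of stages, from the fit on stages alone (black) and the fit with letters as a block (orange); filled points have an adjusted p under 0.05. Id4 at 2.02 and Msx2 at -1.39 are filled from E11.5 to E14.5 in both fits, and Bambi there with the block only. From E12.5 to E14.5, Msx2 is filled in both fits, and Bambi, Id1 and Id4 with the block only.

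Among the ID genes Id4 rose across the series, while Id1, Id2 and Id3 had their highest mean at E12.5. Id4 signals were 1311, 316 and 505 at E11.5 in arrays A, B and C, 1792, 1079 and 859 at E12.5, and 4367, 1774 and 1795 at E14.5. The E14.5 arrays were all above the E11.5 arrays, a separation seen upward in 27.3% of all genes, and E14.5 B overlapped E12.5 A. Means were 711 ± 528, 1244 ± 488 and 2646 ± 1491 (SD, n = 3). Id4 rose by 2.02 ± 0.53 on the log2 scale from E11.5 to E14.5, a fold of 4.05 (limma adjusted p = 0.0141). Leaving out array E11.5 B, the lowest, gave 1.56 and an adjusted p of 0.0508, and testing dim genes too gave 0.0567, so the call was lost in both. The first step, from E11.5 to E12.5, was 0.996 ± 0.53 (adjusted p = 0.411), or an SE of 0.23 and adjusted p = 0.0576 with the letter block in limma. From E12.5 to E14.5 it was 1.02 ± 0.53 (adjusted p = 0.201 in limma), and with the block Id4 rose, with an SE of 0.23 and an adjusted p of 0.0173. Every letter was higher at the later stage in both steps. Id4 differs from its relatives in some settings, where it has been described as opposing the other ID proteins.

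Id1, often used as a direct readout of BMP-SMAD activity, varied as much between arrays of a stage as between stages. Its signals were 13191, 2629 and 5621 at E11.5, 13698, 7597 and 6648 at E12.5, and 8277, 3826 and 2576 at E14.5. Stages overlapped, with letter A far above B and C in each, and means were 7147 ± 5444, 9314 ± 3826 and 4893 ± 2997 (SD, n = 3). Between E12.5 and E14.5 the log2 change was -1.03 ± 0.59 (limma adjusted p = 0.242). Within letters it was -0.73, -0.99 and -1.37, and with the block Id1 fell, with an SE of 0.31 and an adjusted p of 0.0469. All 3 letters were lower at E14.5 than at E12.5 for Id1, Id2, Id3, Bambi and Msx2, a pattern of 33.4% of all genes.

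Id3, which is close to Id1 in sequence and regulation, had signals of 7828, 2804 and 4004 at E11.5, 9993, 6091 and 5793 at E12.5, and 9222, 4472 and 3596 at E14.5. Letter A was again the highest in each stage, and the stages overlapped, with means of 4879 ± 2624, 7292 ± 2344 and 5763 ± 3027 (SD, n = 3). Id3 was higher at E12.5 than at E11.5 in every letter, by 0.35, 1.12 and 0.53, as were Id1, Id4, Bambi and Bmpr1b, a direction that 28.9% of all genes shared. The Id3 change over that step was 0.67 ± 0.43 on the log2 scale (limma adjusted p = 0.511, or 0.103 with the block). Id2, which is expressed in limb mesenchyme and also takes part in cell cycle control, had signals of 8474, 4490 and 5844 at E11.5, 7389, 7145 and 5141 at E12.5, and 5764, 5380 and 4223 at E14.5. All stages overlapped, with means of 6269 ± 2026, 6558 ± 1234 and 5123 ± 802 (SD, n = 3). Id2 was not called in any pair of stages, with log2 changes of 0.10 ± 0.25, -0.35 ± 0.25 and -0.25 ± 0.25.

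Of the MSX genes, which encode repressors of differentiation in limb mesenchyme and ectoderm, Msx2 fell at E14.5. Its signals were 395, 333 and 365 at E11.5, 530, 288 and 520 at E12.5, and 198, 186 and 72.0 at E14.5. No E14.5 array reached the lowest array of either earlier stage, a separation seen downward in 21.9% of all genes against E12.5 and 24.1% against E11.5. Mean signals were 364.5 ± 31.0, 446 ± 137 and 152 ± 69.7 (SD, n = 3). Msx2 fell by 1.63 ± 0.38 on the log2 scale from E12.5, to a level lower by a fold of 3.10 (limma adjusted p = 0.0147). Relative to E11.5 it fell by 1.39 ± 0.38, a fold of 2.63 (limma adjusted p = 0.0160). Between E11.5 and E12.5 it did not differ beyond the spread (0.24 ± 0.38, adjusted p = 0.819 in limma).

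The Msx2 call from E12.5 was lost without array E12.5 A (-1.48, limma adjusted p = 0.0545), without E12.5 C (-1.50, 0.0508), without all 3 letter A arrays (-1.74, 0.0652), with the mean of both probe sets (-1.14, 0.0544) and with no filter on dim genes (0.0552). From E11.5 the call was lost with the mean of both probe sets (-0.94, limma adjusted p = 0.0666) and with no filter (0.0580), and without E14.5 C, the lowest array, the change was -0.92 with an adjusted p of 0.0263. Limb ectoderm, another place of Msx2 expression, had 10 listed markers, of which 6 were tested. At E14.5, 3 were called higher and 1 lower than at E11.5, against 22.9% and 17.7% of all genes. Summed ectoderm signals were 1050 to 1270 at E11.5, 1367 to 1555 at E12.5 and 1418 to 1617 at E14.5. Of its defining markers, Fgf8, a marker of the ectodermal ridge, was too dim to be tested. Its mean signals before the floor, in the order of stages, were 17.9, 113 and 9.62, and it was at the floor in all E14.5 arrays. Sp8 went the other way. It was at the floor in E11.5 A and B and in all E12.5 arrays, and above the floor in every E14.5 array. The part of ectoderm in the Msx2 values was not tested.

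Msx1 signals overlapped between all stages, at 1775, 1500 and 1026 in E11.5, 1794, 1164 and 1338 in E12.5, and 1384, 1192 and 833 in E14.5. Means were 1434 ± 379, 1432 ± 325 and 1136 ± 280 (SD, n = 3), and the change from E11.5 to E14.5 was -0.33 ± 0.26 (limma adjusted p = 0.349). The E11.5 and E12.5 means were nearly equal and E14.5 was the lowest, and no neighbours in that order differed beyond their spread.

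Several genes had more than 1 probe set, a group of short probes against one stretch of transcript. With each as its own feature, 20 of the 25 passed the filter on low signals, and 5 dim ones were not tested: 1 each of Bmpr1a, Bmpr2 and Msx2 and 2 of Bmpr1b. From E11.5 to E12.5 none of the 20 was called, against 0.776% of 24370 probe sets. None had an unadjusted p under 0.05, against 11.1% of all, and with the letter block 3 had, against 15.3%. From E12.5 to E14.5 only Msx2 was called (adjusted p = 0.0372 in limma), against 11.3% of all probe sets. Its call at this level was lost on leaving out any one of the 9 arrays other than B of E12.5 and A of E14.5, which left 0 called. With the letter block 1 probe set of Id4 was called as well, which made 2, against 14.4%.

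From E11.5 to E14.5, 4 member probe sets were called, 3 higher and 1 lower, against 26.9% of all (15.0% higher and 11.9% lower). All 3 Id4 probe sets rose, by 2.02, 1.71 and 1.46 on the log2 scale, with limma adjusted p of 0.0319, 0.0440 and 0.0435. They are designed against the same transcript accession and are not independent. Msx2 fell with an adjusted p of 0.0350 in limma. The number called was 0 without array C of E11.5 or of E14.5, 1 without array B of any stage or array A of E14.5, and 2 without array A of E12.5. Probe sets of one gene also differed. Both Msx1 probe sets were lower at E14.5, by -0.33 in the brighter one and by -0.88 in the dimmer one, which had signals of 391, 304 and 246 at E11.5 and of 238, 177 and 112 at E14.5 (adjusted p = 0.0988 in limma). For Id2 the brighter pair changed by -0.25 each and the dimmest by -1.13, and none was called. The 5 tested Bmpr1a probe sets changed by between 0.04 and 0.34, and the 2 of Bmpr2 by 0.18 and 0.21.

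**Figure D3:**
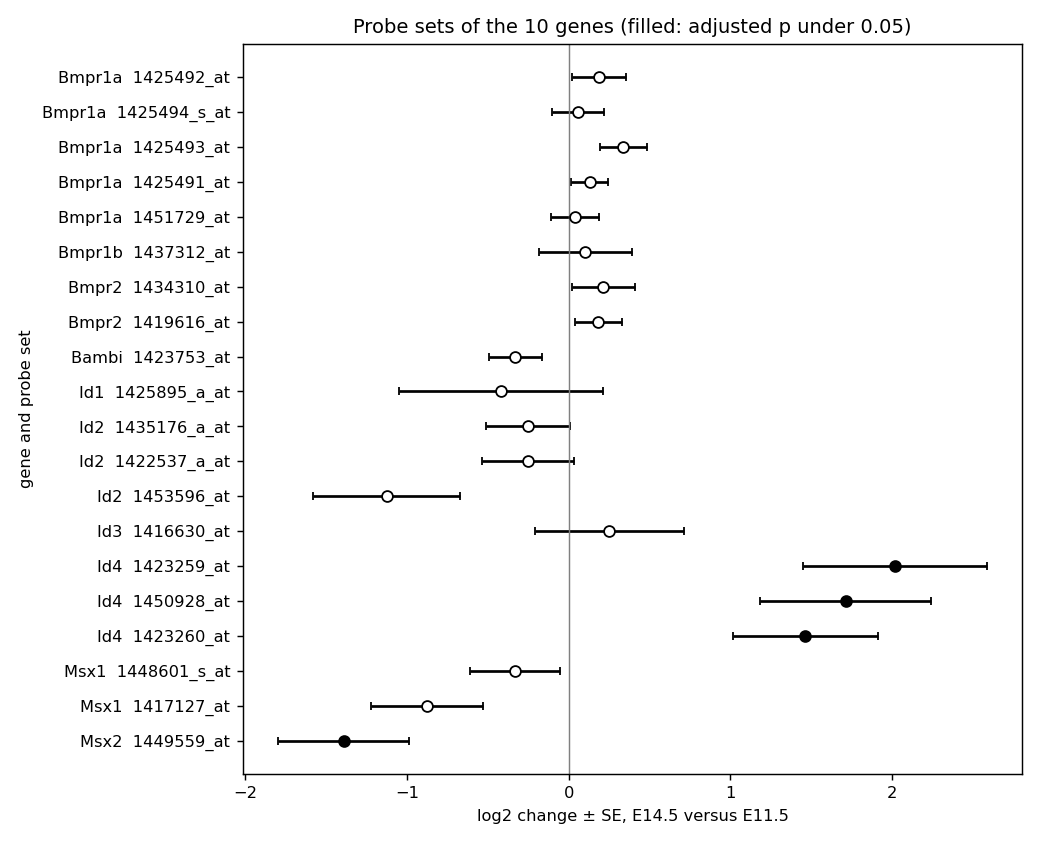
log2 change from E11.5 to E14.5 with its standard error (x axis) for the 20 tested probe sets of the 10 genes (y axis); filled points have an adjusted p under 0.05 in the fit of all 24370 tested probe sets. The 3 Id4 probe sets lie between 1.46 and 2.02 and Msx2 at -1.39, while the 3 Id2 probe sets spread from -1.13 to -0.25.

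Differences between arrays of one stage ran in parallel across the ID genes. Letter A was the highest array in all 3 stages for 7 of the 10 genes (Bambi, Id1, Id2, Id3, Id4, Msx1 and Msx2), a pattern that 12.4% of all genes tested had. Letter A was the lowest in all 3 stages for Bmpr1a and Bmpr2, as for 10.1% of all genes. The excess of A over the mean of B and C was 1.78, 0.95 and 1.40 on the log2 scale for Id1 in the order of stages. For Id4 it was 1.71, 0.90 and 1.29, and for Id3 1.22, 0.75 and 1.20. Id2, Msx1 and Bambi had smaller excesses, of at most 0.73. Array E11.5 B was the lowest of its stage for each ID gene, by -1.14 for Id1 and by -0.91 for Id4 relative to the stage mean.

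Split by stage, letter and rest, the variance of Id3 lay 70.0% with the letter and 21.3% with the stage. The letter share was 59.4% for Id1, 61.0% for Msx1, 51.7% for Bmpr1a, 50.3% for Bmpr2 and 44.5% for Id2. Its median over all genes tested was 15.7%. Msx2, Id4, Bambi and Bmpr1b had more with the stage than the letter, at 71.3%, 61.1%, 57.3% and 36.4%, beside a median of 54.0%. Their letter shares were 7.1%, 34.1%, 41.6% and 19.6%. After the stage mean was removed, r over the 9 arrays was 0.985 between Id1 and Id3, 0.979 between Id3 and Id4, and -0.960 between Id1 and Bmpr1a. The arrays share library and scaling across these genes, so the values are a description.

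Immediate early and heat shock genes, which respond within minutes to stimulation or handling, were also highest in letter A. The mean log2 signal of these 17 genes was 9.75, 8.13 and 8.56 in arrays A, B and C at E11.5, 10.17, 9.84 and 9.10 at E12.5, and 12.13, 10.70 and 10.08 at E14.5. Array E11.5 B was the lowest of all 9. Between E11.5 and E14.5, 10 of 17 rose and none fell, against 22.9% of all genes higher. The number was 6 with no filter on dim genes and 15 with the letter block. Their summed signal ran from 14291 to 48559 at E11.5 and from 54092 to 118715 at E14.5. The 8 skeletal muscle markers were likewise highest in letter A in every stage. Their sums in A, B and C were 6418, 3885 and 5263 at E11.5, 10451, 6162 and 5884 at E12.5, and 11641, 9751 and 8567 at E14.5, with Pax7 at the floor in E12.5 C only. From E11.5 to E14.5, 3 of the 8 rose and 1 fell, against 22.9% of all genes higher and 17.7% lower. Summed blood markers were highest in A at E11.5 (3257, against 738 and 590) and at E12.5 (2151, against 1025 and 519) but not at E14.5. The part of this state, or of these cells, in the ID and MSX values was not tested. Without the letter A arrays Id4 changed by 2.16 from E11.5 to E14.5 (limma adjusted p = 0.0017) and Msx2 by -1.59 (0.0438), both calls. In that fit 12 of the 17 immediate early and heat shock genes also rose.

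**Figure D4:**
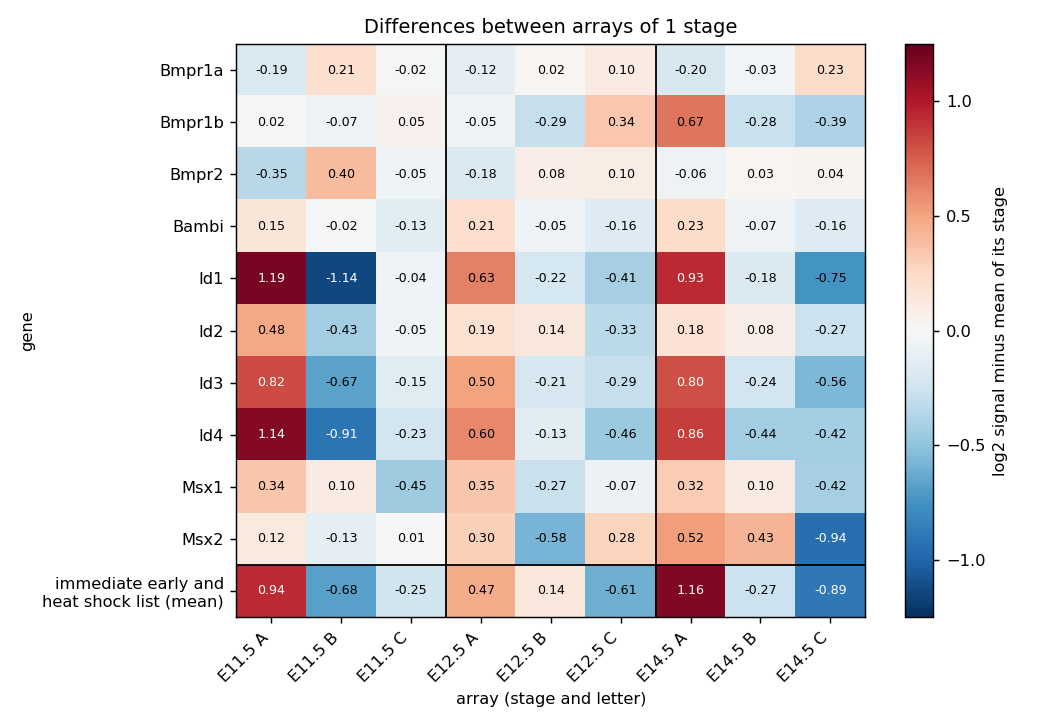
log2 signal of each gene, and the mean of 17 immediate early and heat shock genes (rows), minus the mean of its stage, in the 9 arrays (columns, in stage blocks); red is above and blue below the stage mean. Letter A columns are red for the ID and MSX genes and for the 17-gene mean, and blue for Bmpr1a and Bmpr2.

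The other genes of the pathway were taken from lists written by hand, and each list's count from E11.5 to E14.5 stands against 40.5% of all genes called, 22.9% higher and 17.7% lower. Of 6 BMP and GDF ligand genes tested, 2 rose and none fell, a share near that of all genes. Without E11.5 C 4 rose, and without E14.5 C 3 rose. With the letter block 3 rose, which added Bmp2 (0.72, limma adjusted p = 0.0199, against 0.0563 without the block). Bmp5 rose from 435 to 979 in mean signal, by 1.16 ± 0.20 (limma adjusted p = 0.0018). Bmp6 rose by 2.47 ± 0.34, but its E11.5 mean of 14.6 lay under the floor of 22.7, so the size depends on that floor, and with a higher floor it was 0.50 and not called. From E11.5 to E12.5, Gdf5, a ligand of forming joints, rose from 343 to 1128, by 1.78 ± 0.34 (limma adjusted p = 0.0240). That call was lost in 7 of 20 alternatives, with an adjusted p of up to 0.107. Among them were no filter on dim genes and leaving out all letter A arrays, any E12.5 array, or array A or B of E11.5.

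Of the antagonists and extracellular modulators, 4 of 10 tested were called from E11.5 to E12.5, all higher, against 3.55% of all genes. With centring on medians none was called, and 2 rose with the mean of probe sets or with no filter on dim genes. Only 1 rose on leaving out array A or B of E11.5 or array B or C of E12.5. From E12.5 to E14.5, 3 rose and 1 fell, against 22.0% of all genes called. Over the whole interval all 10 were called, 7 higher and 3 lower (40.5% of all genes). That count was 5 higher and 2 lower without the letter A arrays, 5 and 3 with centring on medians, and 6 and 2 without E11.5 A. Twsg1, called at 0.50 ± 0.15, was lost in 8 of 20 alternatives and changed by -0.03 with the mean of its probe sets. Fst, which encodes follistatin, rose from 400 to 1713 (2.07 ± 0.19, limma adjusted p = 4.1e-05), and Fstl1, a follistatin relative, from 7612 to 21555 (1.50 ± 0.13). Nbl1, a member of the DAN family of BMP antagonists, rose from 542 to 1507 (1.48 ± 0.14), and Bmper, an extracellular BMP binder, from 351 to 1131 (1.60 ± 0.29). From E12.5 to E14.5, Chrd, which encodes the antagonist chordin, rose by 1.21 ± 0.22, and its relative Chrdl1 fell by 1.30 ± 0.21. Chrd was not called without the letter A arrays (limma adjusted p = 0.0628). Relative to E11.5, Smoc1 and Grem1 were also lower at E14.5. The Grem1 call was lost in 5 of 20 alternatives (adjusted p up to 0.141 in limma). Among them were no filter on dim genes and leaving out all letter A arrays, array A or C of E11.5, or array A of E14.5.

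Among 7 other receptors and co-receptors, 3 rose and 1 fell between E11.5 and E14.5, against 22.9% and 17.7% of all genes. Only 1 rose with centring on medians or without the letter A arrays. Acvr2b, a type II receptor gene for activins and BMPs, fell from 1474 to 297, by 2.30 ± 0.16 on the log2 scale (limma adjusted p = 8.2e-06), or by 1.41 with the mean of its probe sets. The type I receptor gene Acvr1 rose from 1479 to 2583 (0.80 ± 0.13, limma adjusted p = 0.0015). Its call was lost when arrays were centred on their medians (0.60, 0.202). Eng, the endothelial co-receptor endoglin, rose from 119 to 296 (1.35 ± 0.34, limma adjusted p = 0.0108), was not called without the letter A arrays (0.0646), and changed by 2.09 with the mean of its probe sets. Over the same interval all 4 tested of 8 listed endothelial markers rose, against 22.9% of all genes. From E11.5 to E12.5 Eng changed by -0.24 ± 0.34. The median change of these 4 markers was then 0.84, with none called. The sum of the 8 listed markers went from between 294 and 597 at E11.5 to between 1107 and 1480 at E14.5. Tie1 was at the floor in every E14.5 array, and Pecam1 in E14.5 B. The part of endothelial cells was not tested. Neo1 rose by 0.43 ± 0.12, a call lost in 6 of 20 alternatives, among them leaving out array A or C of E11.5 or array B of E14.5, and with the mean of its probe sets the change was -0.09.

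Of 10 SMAD genes and regulators tested, Ski, a repressor of SMAD-driven transcription, rose by 1.13 ± 0.15 from E11.5 to E14.5 (limma adjusted p = 0.00034). Zfp423, a cofactor of BMP SMADs, fell by 0.49 ± 0.17 (limma adjusted p = 0.0456), a call that was lost in 14 of 20 alternatives, among them leaving out any array other than E11.5 C (adjusted p up to 0.208). Smad1, Smad5, Smad4, Smad6 and Smad7, the receptor-activated, common and inhibitory SMADs, were not called in any pair of stages in the fit on stages alone. Among 7 other BMP-responsive transcription factor genes tested, none rose and 3 fell from E11.5 to E14.5. Of all genes, 22.9% were called higher and 17.7% lower. Without E14.5 A or without all letter A arrays, 1 of the 7 rose and 4 fell. With the letter block none rose and 4 fell, which added Hey1 (-0.91, limma adjusted p = 0.0414, against 0.268 without the block). Hand2, a limb patterning gene, fell by 1.45 ± 0.19, Tbx2 by 1.21 ± 0.23 and Tbx3 by 0.99 ± 0.14, with limma adjusted p of 0.00034, 0.0027 and 0.00055. With the mean of its probe sets Tbx3 changed by -0.63. Of 6 bHLH factor genes listed as partners of ID proteins, 1 rose and 3 fell, against 40.5% of all genes called. Binding of their products to ID proteins was not tested. With centring on medians none rose and 1 fell, without the letter A arrays none rose and 2 fell, and 1 fell on leaving out array B or C of E11.5 or array A or B of E14.5. The changes were as follows: Twist2 by 0.74 ± 0.18, Scx by -0.81 ± 0.22, Tcf3 by -0.56 ± 0.12 and Tcf12 by -0.43 ± 0.14. Scx was not called on leaving out array B or C of E11.5 or array A or B of E14.5 (limma adjusted p up to 0.0589). Twist2 and Tcf3 were not called with centring on medians, and Tcf12 was lost in 12 of 20 alternatives, among them leaving out any array other than E11.5 A or E14.5 C.

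**Figure D5:**
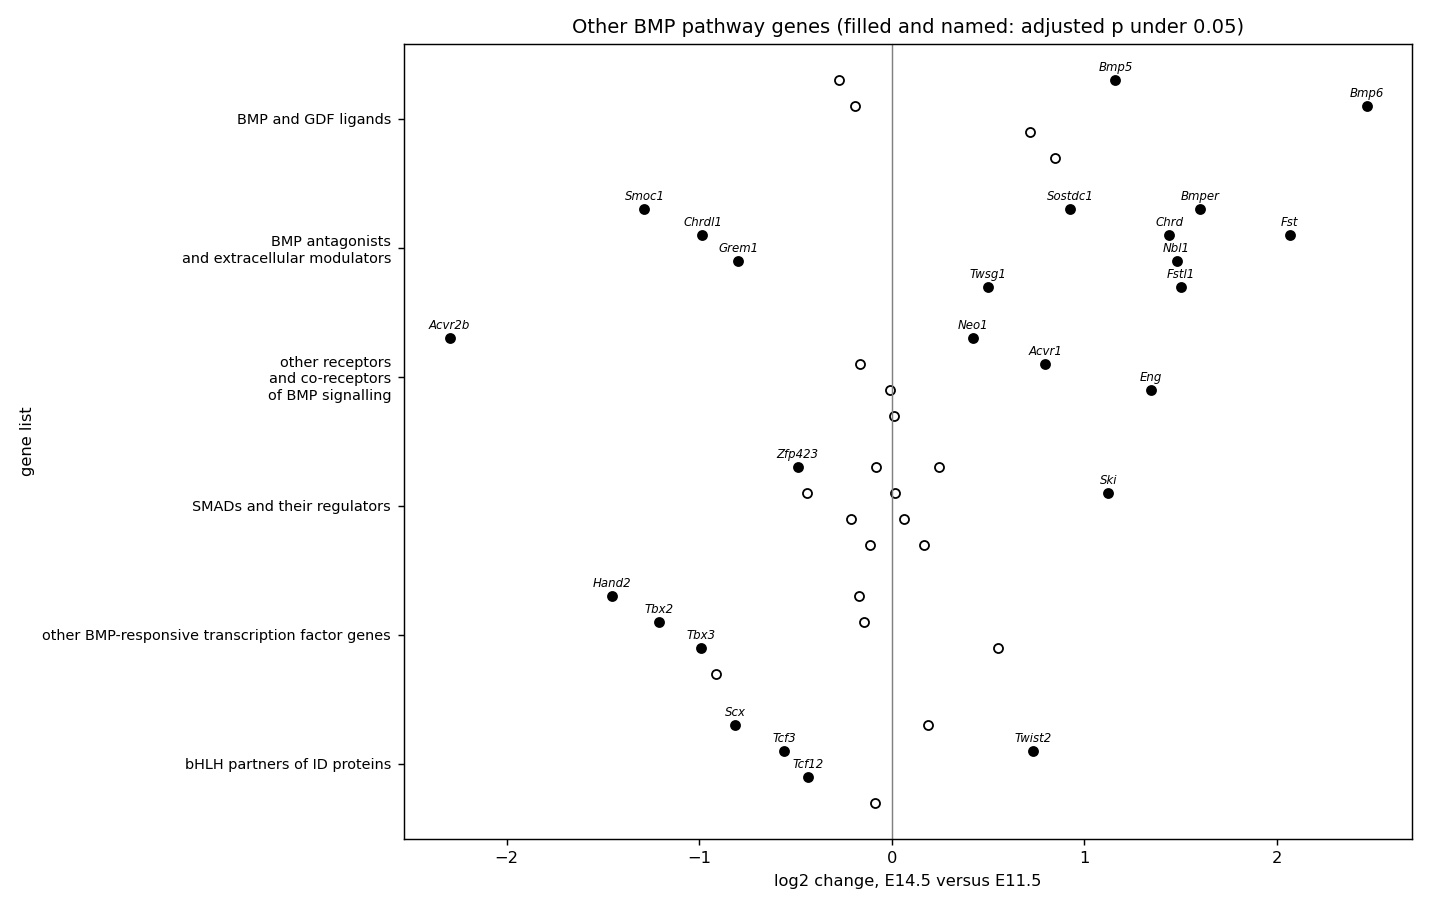
log2 change from E11.5 to E14.5 (x axis) of the tested genes in 6 BMP pathway lists (y axis, one row per list, with points staggered for legibility); filled and named points have an adjusted p under 0.05. All 10 tested antagonists and modulators are filled, 7 to the right, and Acvr2b lies farthest left at -2.30.

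The genes whose log2 signal followed a member most closely over the 9 arrays were Snhg8 for Id4 (Pearson r = 0.992), Pbk for Msx2 (0.974), Eif6 for Id1 (0.977), Kptn for Id3 (0.969) and Pgap2 for Id2 (0.963). For the receptors they were Aak1 for Bmpr1a (0.965), Sema3b for Bmpr1b (0.932) and Gli3 for Bmpr2 (0.968). Snapc2 was closest to Bambi (0.984) and Sf3b2 to Msx1 (0.968). These are the highest of 11575 values for each member, over arrays that share stage and scaling, and describe likeness only.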

How the data were processed

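The data are 9 arrays (an Affymetrix mouse genome design), 3 for each of the stages E11.5, E12.5, E14.5. The authors deposited one linear intensity per probe set, the signal computed with MAS5 (Affymetrix Expression Console 1.1), as the submitters' processing notes say. The mean of each array's signals without the lowest and highest 2% was 500.0, so the arrays had been scaled, and no further normalization was applied. Probe sets listed with 1 gene symbol were used (34945 of 45101), and 1 probe set stood for each gene, the one with the highest mean log2 signal (_x_at only where a gene had no other).

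Signals below 22.7, the 25th percentile, were raised to that floor. Genes above 90.6, the median signal, in at least 3 arrays were tested (11575). The printed signals are before the floor. One limma fit (3.58.1, R 4.3.3; 6 residual degrees of freedom) of log2 signal gave each stage a mean, with two-sided contrasts, Benjamini-Hochberg adjustment over all genes, and calls at an adjusted p under 0.05. A second fit took all 24370 probe sets above the filter. The procedure was tested on simulated data.

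Deviations from stage means of arrays with the same letter correlated with r of 0.520, 0.133 and 0.332 (A, B, C) between E11.5 and E12.5 and of 0.310, 0.121 and 0.289 between E12.5 and E14.5. The letters were therefore taken to pair arrays in those comparisons, as a hint from the data and not the labels. For E14.5 against E11.5 the values were 0.313, -0.00516 and 0.238, and pairing by letter was not accepted there. The block fit was nevertheless a single fit of all stages, with the letter as a term. It gave a gene the same SE in every comparison. Its SEs and calls for the comparisons with E12.5 thus also assume that letters pair E11.5 with E14.5. Block values from E11.5 to E14.5 are printed as an alternative only. The 10 genes, the gene lists and the tests were chosen with earlier results of these data known. Named genes are all 10 members, up to 4 called genes of each list with the largest change in a comparison, and the gene most like each member. Bmp2, Hey1, Grem1, Smoc1, Twsg1, the SMADs and the Dlx genes are named beyond that rule, after their values were seen. Alternatives changed the floor, filter, normalization, probe set rule, prior, weights, arrays and block.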

Additional observations from a re-analysis of the deposited data

How the results depend on the processing

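Over 20 alternatives for each of 10 genes and 3 comparisons, 563 of 600 log2 changes kept their direction and side of the threshold, 9 lost a call, 5 gained one and 23 changed sign, none of these called. Called members from E12.5 to E14.5 numbered 0 with no filter on dim genes, 0 with the mean of all probe sets, 0 without letter A arrays, 4 with the replicate block and 0 to 2 with one array left out, against 1. From E11.5 to E14.5 they numbered 0 with no filter, 1 with the mean of probe sets and 1 to 2 with one array left out, against 2, and the block added Bambi (adjusted p 0.0401). Among the pathway genes the block added Bmp2 (0.0199), Hey1 (0.0414) and Smad5 (0.0441). Called members for any stage were 0 with no filter, 0 with the mean of probe sets, 1 with a trended and robust prior, 1 with array weights, 1 without letter A arrays, and 1 to 2 with one array left out, against 2. Member probe sets called from E12.5 to E14.5 numbered 0 with no filter, quantile normalization, median centring, 6 arrays or no letter A arrays, 2 with the replicate block, and 0 to 1 with one array left out, against 1. From E11.5 to E14.5 they were 0 with no filter, 2 with median centring, 0 with 6 arrays, and 0 to 3 with one array left out, against 4, and 5 with the replicate block, which added the dimmer Msx1 probe set (adjusted p 0.0356).

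Signs changed with median centring for Bmpr1a (-0.029), Bambi (-0.030) and Msx1 (-0.075) from E11.5 to E12.5, Bmpr2 (-0.024) from E12.5 to E14.5, and Bmpr1a (-0.0099) and Bmpr1b (-0.10) from E11.5 to E14.5. This centring shifts the median of all genes to -0.16 from E12.5 to E14.5 and to -0.20 from E11.5 to E14.5. They changed with the mean of probe sets for Bmpr2 (-0.0058, E11.5 to E12.5) and Bmpr1b (-0.085, E11.5 to E14.5), with array weights for Msx1 (-0.028, E11.5 to E12.5), Bmpr1b (-0.084) and Id3 (-0.0093, both E11.5 to E14.5), and without letter A arrays for Bmpr1b (-0.22). With one array left out, changes from E11.5 to E12.5 ran from -0.040 to 0.16 for Bmpr1a, -0.049 to 0.32 for Bmpr2, -0.049 to 0.14 for Bambi, -0.12 to 0.34 for Id2 and -0.21 to 0.18 for Msx1. From E11.5 to E14.5 they ran from -0.23 to 0.30 for Bmpr1b, -0.99 to 0.17 for Id1 and -0.15 to 0.66 for Id3. The cause of these changes was not tested.

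Over all genes, 411 were called from E11.5 to E12.5, against 182 with no filter, 180 with median centring, 156 with the mean of probe sets, 249 without letter A arrays and as few as 125 with one array left out. From E12.5 to E14.5, 2542 were called, 57.6% of them higher, against 894 (69.7% higher) with median centring, 1084 (72.4%) without letter A arrays and as few as 1564 with one array left out. From E11.5 to E14.5, 4691 fell to 2333 with median centring. Signals near the floor limit what can be said of the 5 dim probe sets and of Bmp6.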

Other observations

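Among the BMP-responsive genes that did not pass the filter, Dlx1, a homeobox gene, had a signal of 653 in array E11.5 B and of 1.38 and 7.96 in E11.5 A and C, and stayed below 10 in the other arrays. Dlx2, its neighbour in the genome, had 414 in E11.5 B and 56.1 and 58.9 in E11.5 A and C. Array E11.5 B is also the lowest of its stage for the 4 ID genes. The other Dlx pair of the list was highest there too, with 836 for Dlx5 against 410.5 and 322 in E11.5 A and C, and 170 for Dlx6 against 13.2 and 32.2. Dlx3, the remaining Dlx gene of the list, went the other way, with 38.1 in E11.5 B against 72.1 and 51.3 in E11.5 A and C. The Dlx genes were singled out after their values were seen.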
